A study of Mus musculus with 3 samples.

Results

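The 10 genes described here are receptors for peptide hormones of the gut and of its nerves. They are Glp1r, Gipr, Gcgr, Vipr1 and Calcrl of the secretin class, and Cckar, Cckbr, Galr1, Npy1r and Npy2r of the rhodopsin class. They were taken as a list of symbols, with no threshold on their levels, and all 10 had transcripts among the 23800 genes that could be named. Their levels came from 3 libraries of cells sorted from the upper small intestine of C57BL/6 mice, each group being 1 pool of RNA and 1 library.

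GIP-GFP held epithelial cells that express GIP, an incretin hormone of duodenal K cells, and are marked by a GFP reporter. Ngn3-TOMATO held cells of male offspring of Ngn3-Cre mice crossed to ROSA26-LoxP-STOP-LoxP-tomato mice, sorted for tomato fluorescence and for absence of CD45, a surface marker of blood cells. Ngn3-neg held the other cells of that cross, without tomato and also negative for CD45. No CD45 gate is stated for GIP-GFP, and the ages and the number of mice per pool are not given in the sources used here. In the cross, Cre is driven by Ngn3, the factor that starts endocrine differentiation, so the mark follows descent and not present hormone production. The pools were made from equal amounts of individual RNA samples, so no spread between mice can be measured, no difference has a replicate check and no test between groups was possible.

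The receptors studied here all couple to G proteins. Those for GLP-1, GIP, glucagon and VIP raise cyclic AMP through Gs, those for CCK and gastrin raise calcium through Gq, and Galr1, Npy1r and Npy2r lower cyclic AMP through Gi. In the gut, such receptors let an endocrine cell or an enterocyte respond to peptides released by neighbouring endocrine cells or by nerve endings. Calcrl binds CGRP or adrenomedullin according to which RAMP protein accompanies it at the membrane.

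Depth, as coverage times length summed over transcripts, was 592.1 Mb for GIP-GFP and 1380 Mb for Ngn3-TOMATO, against 1030 Mb for Ngn3-neg. Values are scaled FPKM, the deposited FPKM summed over the transcripts of a gene and divided by 1 number common to all libraries, so that the mean library total was 1000000. FPKM is per length, which allows levels of different genes to be compared. The 11 markers of enteroendocrine cells followed the labels and summed to 14403 scaled FPKM in GIP-GFP and 24265 in Ngn3-TOMATO, against 383.4 in Ngn3-neg. The sums do not rank the reporter sorts. Of the 11 markers, 5 were at least 2-fold higher in GIP-GFP than in Ngn3-TOMATO. Only 1 was at least 2-fold lower, Chga, at 325.0 against 8908. The 5 goblet cell markers summed to 4592 in GIP-GFP and 161681 in Ngn3-TOMATO, against 28584 in Ngn3-neg, and the 5 Paneth cell markers to 2284.8 and 27012, against 4790.9. Both lists exceeded the enteroendocrine markers in Ngn3-TOMATO, so that library was not endocrine alone. Gip alone took 23.4% of the summed gene values of GIP-GFP, 2.66% of those of Ngn3-TOMATO and 0.0817% of those of Ngn3-neg.

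Galr1 led the receptors of GIP-GFP, Galr1, Glp1r and Vipr1 those of Ngn3-TOMATO, and Vipr1 nearly alone those of Ngn3-neg. The 10 genes summed to 141.0 scaled FPKM in GIP-GFP and 181.3 in Ngn3-TOMATO, against 149.0 in Ngn3-neg, and the makeup of the sum differed between libraries. Galr1 made up 67.3% of the sum in GIP-GFP and 32.0% in Ngn3-TOMATO, against 0.630% in Ngn3-neg. Vipr1 made up 20.9% in GIP-GFP and 23.1% in Ngn3-TOMATO, against 97.6% in Ngn3-neg. The genes at 1 scaled FPKM or more numbered 5 of 10 in GIP-GFP and 7 in Ngn3-TOMATO, against 1 in Ngn3-neg. Among all 23800 genes they numbered 12941, 13008 and 11871 in the same libraries, so the GIP-GFP count is near the share of all genes. In bulk libraries, fewer cells that carry a transcript and less transcript per cell cannot be told apart.

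**Figure D1:**
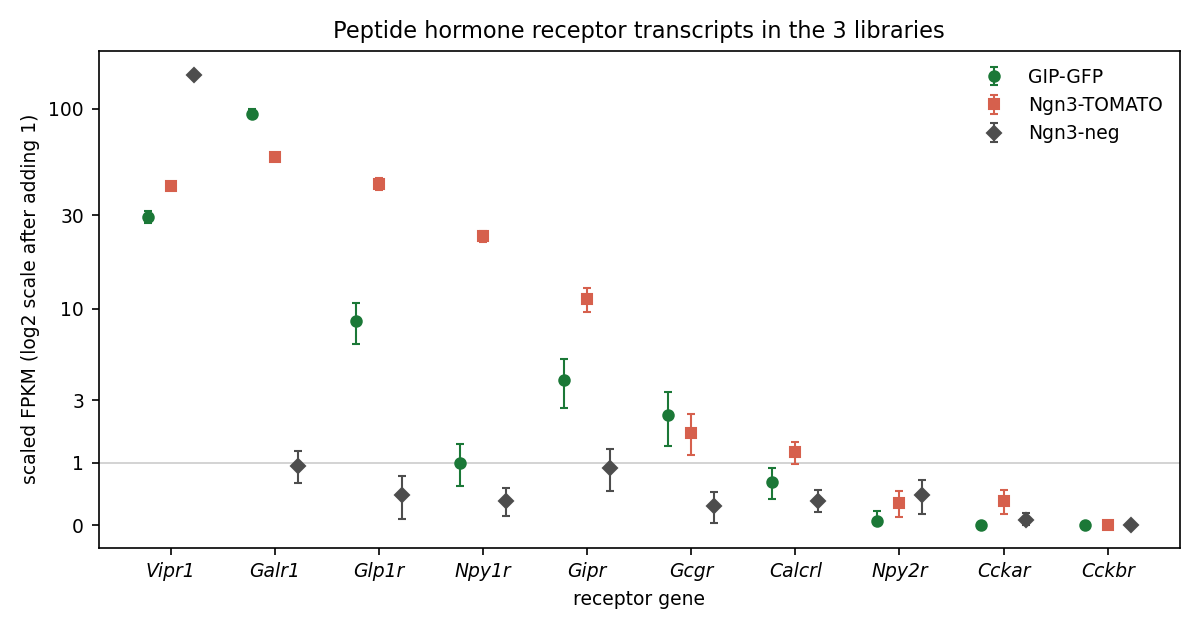
Scaled FPKM (vertical axis, log2 scale after adding 1) of the 10 receptor genes in GIP-GFP (green circles), Ngn3-TOMATO (red squares) and Ngn3-neg (dark diamonds), 1 pooled library each. Bars are the deposited limits of the FPKM, the value plus and minus 2 standard errors, summed over transcripts. Vipr1 is the only receptor with its highest point above 1 in Ngn3-neg, at 145.5, and Cckbr lies at 0 in all 3 libraries.

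Glp1r encodes the receptor of GLP-1, the incretin of L cells. Its transcript model, uc008bud.1 (chromosome 17, 30901867 to 30936510, mm10), is 1480 bases long and was matched by overlap, since it shares no end with a GENCODE transcript of the gene. Glp1r stood at 8.62 scaled FPKM in GIP-GFP and 43.0 in Ngn3-TOMATO, against 0.398 in Ngn3-neg. These values rested on 65, 827 and 6 fragments in that library order, as estimated from the deposited limits. Glp1r was thus highest in Ngn3-TOMATO, intermediate in GIP-GFP and known from very few fragments in Ngn3-neg, with limits that did not overlap.

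Gipr, the receptor of GIP itself, stood at 3.99 scaled FPKM in GIP-GFP and 11.2 in Ngn3-TOMATO, against 0.890 in Ngn3-neg (uc009fkw.1, chromosome 7, 19157125 to 19166127). The main transcript was estimated at 37 fragments in GIP-GFP and 197 in Ngn3-TOMATO, against 17 in Ngn3-neg. A shorter model, uc009fkx.1, added 2.56 scaled FPKM in Ngn3-TOMATO from 23 estimated fragments and was listed at 0 in the other libraries. The GIP-GFP library thus held less Gipr transcript than the Ngn3-TOMATO library, with limits, which leave out differences between mice, that did not overlap. Part of this gap came from uc009fkx.1. Another model, uc009fky.1, was listed at 0 throughout.

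Gcgr, the glucagon receptor, was known by few reads. It stood at 2.38 scaled FPKM in GIP-GFP and 1.79 in Ngn3-TOMATO, against 0.238 in Ngn3-neg, from 24, 34 and 5 estimated fragments (chromosome 11, 120530727 to 120538984). The values are sums over 3 models, of which uc007mtc.2 alone was above 0 in GIP-GFP and in Ngn3-neg and gave 1.10 scaled FPKM from 21 estimated fragments in Ngn3-TOMATO. The deposited limits were 1.41 to 3.36 in GIP-GFP and 1.17 to 2.41 in Ngn3-TOMATO, so these libraries overlapped, and both lay above the upper limit of 0.450 in Ngn3-neg.

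Vipr1 encodes the receptor shared by VIP and PACAP, peptides of enteric nerves, and it showed the reverse order. It stood at 29.4 scaled FPKM in GIP-GFP and 41.8 in Ngn3-TOMATO, against 145.5 in Ngn3-neg (uc009sdl.2, chromosome 9, 121642716 to 121672954), from 916, 3266 and 8713 estimated fragments. More genes lay below it in Ngn3-neg (95.2% of all genes) than in GIP-GFP (76.4%) or Ngn3-TOMATO (82.9%). Its limits did not overlap between any 2 libraries.

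Calcrl, the receptor core for CGRP and adrenomedullin, was low throughout, at 0.608 scaled FPKM in GIP-GFP and 1.24 in Ngn3-TOMATO, against 0.315 in Ngn3-neg (uc008kii.3, chromosome 2, 84330627 to 84425266). The fragments were estimated at 20, 89 and 16. Only the Ngn3-TOMATO value lay clear of the others, with limits of 0.979 to 1.51.

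Galr1, a receptor of galanin that couples to Gi, was the most abundant of the 10 in both reporter sorts. It stood at 94.9 scaled FPKM in GIP-GFP and 58.0 in Ngn3-TOMATO, against 0.938 in Ngn3-neg (uc008ftq.1, chromosome 18, 82392496 to 82406777). The estimated fragments were 1633, 2435 and 30. In GIP-GFP it stood above 92.8% of all genes. It was the only one of the 10 at 1 scaled FPKM or more that was higher in GIP-GFP than in Ngn3-TOMATO with limits that did not overlap.

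Npy1r, a Gi-coupled receptor for neuropeptide Y and peptide YY, was largely a transcript of Ngn3-TOMATO. It stood at 0.997 scaled FPKM in GIP-GFP and 23.6 in Ngn3-TOMATO, against 0.314 in Ngn3-neg (uc009lvt.2, chromosome 8, 66697422 to 66706798). The estimated fragments were 19, 1016 and 10. Npy2r, which prefers the shortened form of peptide YY, stood at 0.0446, 0.282 and 0.392 scaled FPKM in the same libraries, never from more than 10 estimated fragments over its 2 models.

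The CCK receptors were near or at 0. Cckar, the receptor selective for sulphated CCK, was listed at 0 in GIP-GFP and stood at 0.307 scaled FPKM in Ngn3-TOMATO, against 0.0618 in Ngn3-neg, from 12 and 2 estimated fragments. Cckbr, the receptor that also binds gastrin, was listed at 0 in all 3 libraries in both of its models. With files that give no fragment counts, a listed 0 says only that no value was estimated at this depth.

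In order of level, the neighbours in GIP-GFP from Gipr through Gcgr, Npy1r and Calcrl overlapped pairwise in their limits. In Ngn3-TOMATO the overlapping neighbours were Glp1r with Vipr1 (40.0 to 46.0 against 40.4 to 43.3) and Gcgr with Calcrl, as well as Cckar with Npy2r. In Ngn3-neg every receptor below Vipr1 was under 1 scaled FPKM. There all neighbours from Galr1 (0.596 to 1.28) and Gipr (0.458 to 1.32) down to Cckar overlapped pairwise and could not be ordered.

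The promoters of Glp1r, Npy1r and Vipr1 are shown because Glp1r and Npy1r stood highest in Ngn3-TOMATO and Vipr1 in Ngn3-neg. RefSeq start sites with promoters were at hand for 7 of the 10 receptors, all but Gipr, Cckar and Galr1. For each of the 3 the RefSeq start site, with 250 bases before and 50 after it, coincided with the start of the UCSC model (0 bases apart). Capitals mark any match, on either strand, to CAGATG (an E-box of the NeuroD type), TGACG (part of the cAMP response element), TATAAA (the TATA box), GGGCGG (the GC box), CCAAT (the CCAAT box) or AGATAA (the site of GATA factors). The sequences are RefSeq's on GRCm38.p6, on the plus strand, at chr17:30901617-30901916 for Glp1r, chr8:66697172-66697471 for Npy1r and chr9:121642466-121642765 for Vipr1.
Glp1r: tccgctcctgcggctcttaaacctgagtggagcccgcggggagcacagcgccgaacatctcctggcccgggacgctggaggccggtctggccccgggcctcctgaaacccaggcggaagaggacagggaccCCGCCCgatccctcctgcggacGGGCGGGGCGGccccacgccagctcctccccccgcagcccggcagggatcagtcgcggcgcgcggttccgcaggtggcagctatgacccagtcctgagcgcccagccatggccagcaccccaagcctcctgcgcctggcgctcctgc
Npy1r: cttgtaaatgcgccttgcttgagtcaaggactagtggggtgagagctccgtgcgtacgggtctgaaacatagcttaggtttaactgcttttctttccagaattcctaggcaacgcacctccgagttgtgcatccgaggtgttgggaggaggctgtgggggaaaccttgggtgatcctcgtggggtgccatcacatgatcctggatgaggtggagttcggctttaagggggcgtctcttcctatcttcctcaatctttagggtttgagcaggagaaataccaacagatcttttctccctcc
Vipr1: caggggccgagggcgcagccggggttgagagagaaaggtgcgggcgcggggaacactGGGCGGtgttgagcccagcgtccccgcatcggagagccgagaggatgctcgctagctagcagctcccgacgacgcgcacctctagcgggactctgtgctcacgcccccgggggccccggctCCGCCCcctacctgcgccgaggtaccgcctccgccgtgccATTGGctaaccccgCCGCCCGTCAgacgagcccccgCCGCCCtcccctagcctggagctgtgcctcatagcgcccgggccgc
The Glp1r window held 3 GC boxes, of which 2 overlap, and none of the other motifs. The Vipr1 window held 4 GC boxes, 1 CCAAT box and 1 TGACG site, which shares bases with a GC box. The Npy1r window held no match to any of the 6. Of 32851 promoters of the same length, 35.7% held a GC box, 37.4% a CCAAT box, 20.8% the TGACG site and 17.2% the CAGATG E-box. The CpG count was 29 in Glp1r, 10 in Npy1r and 35 in Vipr1, against a median of 7 over all promoters. A match in these windows is a description of the letters and not of binding.

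The comparison of GIP-GFP with Ngn3-neg sets cells of the GFP reporter against tomato-negative cells of the Ngn3-Cre cross. The reporter mice differ, and a CD45 gate is stated for Ngn3-neg only. Effects of cell type, mouse line and sort therefore cannot be told apart here. Ratios are log2 of scaled FPKM with 1 added to each value, for genes at 1 or more in at least 1 of the pair, and intervals are 95% counting intervals that leave out differences between mice. The added 1 understates folds of low genes. Of the 5 receptors that could be compared, 4 were at least 2-fold higher in GIP-GFP, where 21.1% of all 13351 genes compared were, and 1 was at least 2-fold lower, where 13.8% were. Past 4-fold, 2 were higher, as were 10.1% of all genes, and 1 was lower, as were 2.77%. All 4 receptors that were higher lay under 1 scaled FPKM in Ngn3-neg and passed the minimum only through GIP-GFP, so their direction was fixed by the filter and the counts describe these genes only.

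Galr1 was the farthest above Ngn3-neg, with a log2 ratio of 5.63 (5.37 to 5.89), higher than that of 99.4% of genes. Without the added 1, the ratio was 101.1, with an exact binomial interval of 70.5 to 150.3 on the estimated fragments. Glp1r followed with a log2 ratio of 2.78 (2.33 to 3.24). Gcgr and Gipr had log2 ratios of 1.45 (0.98 to 1.93) and 1.40 (0.91 to 1.89), both with a lower bound below a 2-fold difference. With an added 5 in place of 1, these 2 genes came to 0.50 for Gcgr and 0.61 for Gipr and were no longer past 2-fold.

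Vipr1 was lower in GIP-GFP, by a log2 ratio of -2.27 (-2.36 to -2.17), below that of all but 1.66% of genes. The 8 enterocyte markers summed to 10248 scaled FPKM in GIP-GFP and 7240.1 in Ngn3-TOMATO, against 35953 in Ngn3-neg, and their median log2 ratio in this comparison was -2.19. T lymphocytes also carry Vipr1, and the 10 matched lymphocyte markers summed to 359.0, 60.8 and 154.5 in the same libraries. Gzma alone made up 245.0, 36.4 and 95.3 of these sums. The part of enterocytes and lymphocytes in the Vipr1 ratio was not tested.

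Npy1r missed the minimum of 1 narrowly, at 0.997 scaled FPKM in GIP-GFP against 0.314 in Ngn3-neg. Its plain ratio was 3.17 with an exact binomial interval of 1.39 to 7.56. That of Calcrl, at 1.93, had an interval of 0.949 to 3.98, which includes no difference. Npy2r, Cckar and Cckbr were too low to compare.

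**Figure D2:**
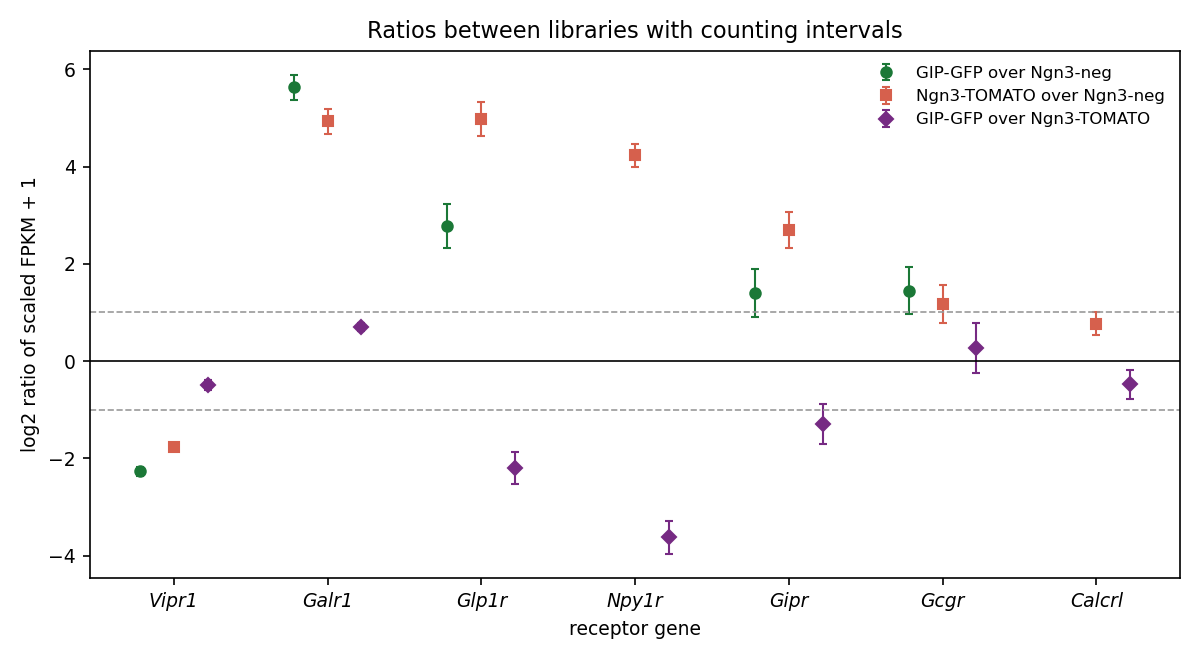
Log2 ratios of scaled FPKM + 1 (vertical axis) for the 7 receptors that could be compared, in GIP-GFP over Ngn3-neg (green circles), Ngn3-TOMATO over Ngn3-neg (red squares) and GIP-GFP over Ngn3-TOMATO (purple diamonds). Bars are 95% counting intervals and dashed lines mark 2-fold. Vipr1 lies below 0 in all comparisons, and Npy1r reaches 4.23 in Ngn3-TOMATO over Ngn3-neg and -3.63 in GIP-GFP over Ngn3-TOMATO.

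The comparison of Ngn3-TOMATO with Ngn3-neg sets the cells of Ngn3 descent, goblet and Paneth cell transcripts included, against tomato-negative cells of the same cross. It shares the Ngn3-neg library with the comparison above. Of the 7 receptors compared, 5 were at least 2-fold higher, where 19.2% of all 13313 genes were, and 1 was at least 2-fold lower, where 9.95% were. Past 4-fold, 4 were higher, as were 8.86% of all genes, and none was lower, against 1.88% of all genes. Of the 7, 6 lay under 1 scaled FPKM in Ngn3-neg and passed the minimum only through Ngn3-TOMATO, so that here too the filter set their direction. Of all genes past 2-fold, 65.9% were higher in Ngn3-TOMATO, against 53.1% after scaling to equal totals.

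Glp1r and Galr1 stood together at the top, with log2 ratios of 4.98 (4.63 to 5.32) and 4.93 (4.67 to 5.18). Without the added 1 the ratio was 108.1 for Glp1r, with an exact binomial interval of 49.4 to 295.4 that reflects the 6 fragments of Ngn3-neg, and 61.8 (43.2 to 91.9) for Galr1. Npy1r had a log2 ratio of 4.23, and a plain ratio of 75.2 (39.9 to 154.0). Gipr had 2.69 (2.32 to 3.07). Glp1r is also carried by intraepithelial lymphocytes of mice. Of 9 lymphocyte markers compared, 0 were at least 2-fold higher and 5 lower in Ngn3-TOMATO than in Ngn3-neg, while in GIP-GFP over Ngn3-neg 4 were higher and 0 lower, with a median log2 ratio of 1.00. The part of lymphocytes in the Glp1r ratios was not tested. The receptor ratios lie beside a median of 5.54 for the 11 enteroendocrine markers with 2.42 for the 5 goblet and 2.44 for the 5 Paneth cell markers in the same libraries.

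Gcgr had a log2 ratio of 1.17 (0.78 to 1.57), and Calcrl 0.77 (0.53 to 1.01). The Gcgr value fell below 2-fold with an added 5, at 0.37, and with only the most abundant transcript of each gene, at 0.81, and Calcrl passed 2-fold with an added 0.1, at 1.69. Vipr1 was lower in Ngn3-TOMATO, by a log2 ratio of -1.77 (-1.83 to -1.72). Calcrl is a gene of vascular endothelium, and the 9 endothelial markers summed to 11.3 scaled FPKM in GIP-GFP and 22.7 in Ngn3-TOMATO, against 5.76 in Ngn3-neg. Esam alone made up 8.90, 10.9 and 4.66 of these sums. Cdh5 and Kdr were listed at 0 in GIP-GFP and in Ngn3-TOMATO, while Pecam1 stood at 1.99, 9.77 and 0.345 in the 3 libraries. Vwf stood at 0.216, 1.25 and 0.194, and Tek at 0.160, 0.679 and 0.348. The part of endothelial cells in the Calcrl ratio was not tested. Of the 8 stromal markers none exceeded 1.22 scaled FPKM in a library.

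The comparison of GIP-GFP with Ngn3-TOMATO sets GIP cells against the cells of Ngn3 descent as a whole. It too joins different reporter mice and sorts, which cannot be told apart from cell type. None of the 7 receptors compared was at least 2-fold higher in GIP-GFP, where 8.01% of all 13604 genes were, and 3 were at least 2-fold lower, where 8.73% were. Past 4-fold, none was higher, against 2.07% of all genes, and 2 were lower, as were 3.2%. Of the 7, 2, Npy1r and Calcrl, passed the minimum only through Ngn3-TOMATO.

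Npy1r was the farthest below, with a log2 ratio of -3.63 (-3.96 to -3.29), lower than that of all but 0.838% of genes. Glp1r had a log2 ratio of -2.19 (-2.52 to -1.86) and Gipr -1.29 (-1.71 to -0.87). Gipr was the least firm of these, since counting only its most abundant transcript left it at -0.97 and adding 5 at -0.85. Galr1 had 0.70 (0.61 to 0.79), Gcgr 0.28 (-0.24 to 0.79), Calcrl -0.48 (-0.77 to -0.19) and Vipr1 -0.49 (-0.59 to -0.39), all within 2-fold.

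The 11 enteroendocrine markers had a median log2 ratio of 0.58 in GIP-GFP over Ngn3-TOMATO, with 5 at least 2-fold higher and 1 lower. Markers of other cells moved in this comparison as well. The 5 enterochromaffin markers summed to 135.7 scaled FPKM in GIP-GFP and 3916 in Ngn3-TOMATO, against 71.0 in Ngn3-neg, with a median log2 ratio of -5.24 between the reporter sorts. All 5 markers of goblet cells, of Paneth cells and of tuft cells were at least 2-fold lower in GIP-GFP, with medians of -4.81, -3.65 and -2.68. Of 9 lymphocyte markers compared, 8 were at least 2-fold higher in GIP-GFP, with a median of 2.12. The L cell markers were split, with Gcg at -3.06 and Nts at -2.84 but Pyy at 1.42. Insl5 was low, at 1.47 scaled FPKM in GIP-GFP and 0.589 in Ngn3-TOMATO. Its log2 ratio of 0.64 had an interval of -0.32 to 1.60, which includes no difference. The 2 D cell markers had a median of -0.07. The 8 markers of enteric neurons and glia summed to 33.8 in GIP-GFP and 64.4 in Ngn3-TOMATO, against 4.10 in Ngn3-neg, of which Ret made up 29.2, 57.3 and 1.36, and Sox10 was listed at 0 throughout. The part of these cells in the ratios of Npy1r, Glp1r and Gipr was not tested.

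The ligand genes of these receptors ranged from the most abundant to those listed at 0. Of the 15, 6 of 7 compared were at least 2-fold higher in GIP-GFP than in Ngn3-neg and 7 of 8 in Ngn3-TOMATO than in Ngn3-neg, counting those listed at 0 in Ngn3-neg. Over all genes, 21.1% and 19.2% were. Gip stood at 243352 scaled FPKM in GIP-GFP and 28243 in Ngn3-TOMATO, against 735.4 in Ngn3-neg, while its receptor never exceeded 11.2. Cck stood at 9354, 16104 and 185.1, with its receptors Cckar and Cckbr at most 0.307. Pyy, the precursor of peptide YY, stood at 4413, 1644 and 39.0, and Npy was listed at 0 in all libraries. Gal, the galanin precursor, was listed at 0 in GIP-GFP and stood at 1.48 in Ngn3-TOMATO, against 0.479 in Ngn3-neg, while Galr1 stood at 94.9, 58.0 and 0.938. Vip and Adcyap1, the precursors of VIP and PACAP, were at 0.0701 scaled FPKM or less in every library. Gast, the gastrin precursor, stood at 26.3 in GIP-GFP and 681.7 in Ngn3-TOMATO and was listed at 0 in Ngn3-neg.

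**Figure D3:**
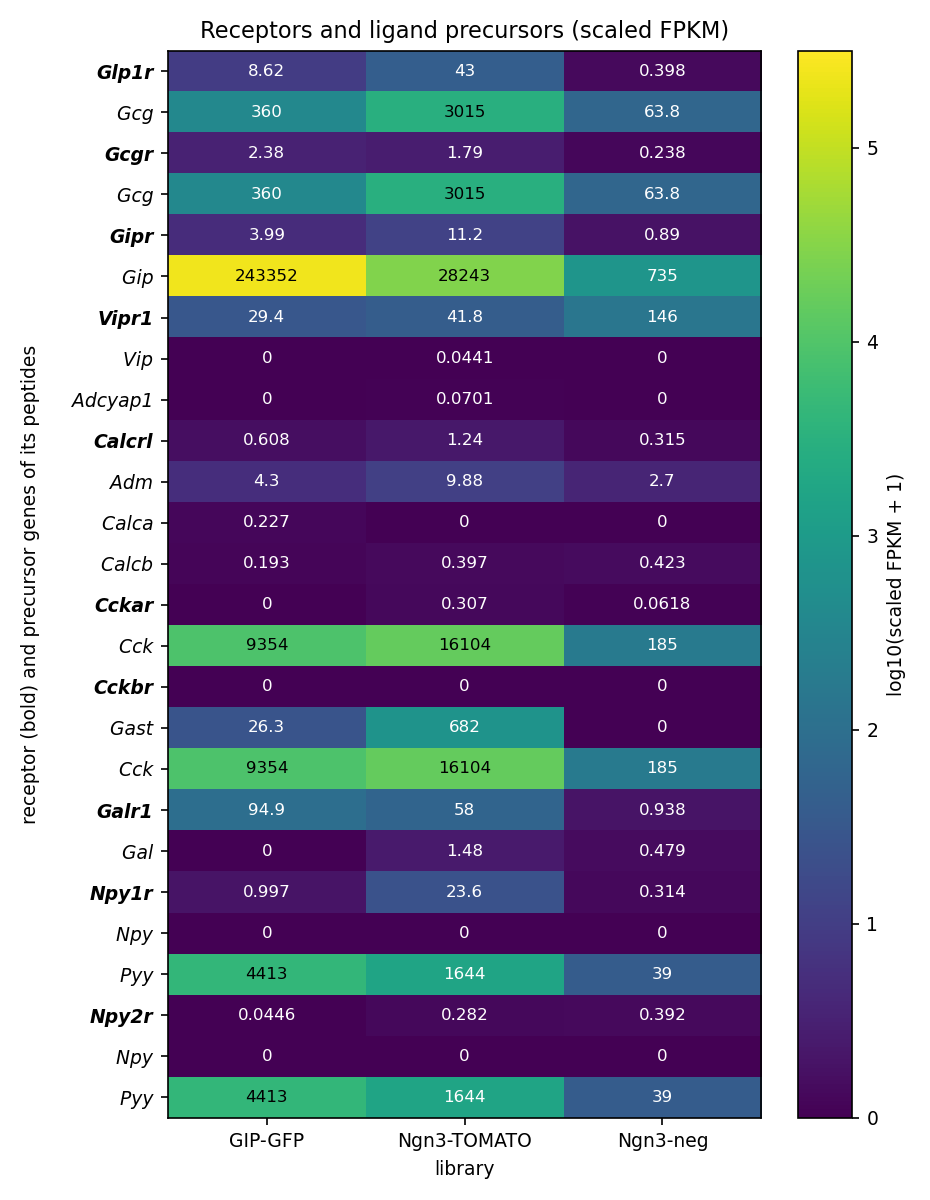
Levels of each receptor gene (bold) and of the precursor genes of its peptides (below it) in GIP-GFP, Ngn3-TOMATO and Ngn3-neg, printed as scaled FPKM and coloured by log10(scaled FPKM + 1). Galr1 and Vipr1 stand beside precursors at 1.48 or less in every library, while Gipr and Cckar stand beside Gip and Cck, at 9354 or more in both GIP-GFP and Ngn3-TOMATO.

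The related genes were counted from lists. Calcrl acts with Ramp1 as a CGRP receptor and with Ramp2 or Ramp3 as an adrenomedullin receptor. Ramp1 stood at 4.21 scaled FPKM in GIP-GFP and 51.7 in Ngn3-TOMATO, against 8.91 in Ngn3-neg, so that it exceeded Calcrl in each. Ramp3 stood at 4.86, 6.84 and 0.313, and Ramp2 was listed at 0 in all. Crcp, the CGRP receptor component, varied little, at 31.8, 29.0 and 27.5. Of the 3 genes of this list compared, 1 was at least 2-fold higher in GIP-GFP than in Ngn3-neg and 2 in Ngn3-TOMATO than in Ngn3-neg. Over all genes, 21.1% and 19.2% were. Ramp3, higher in both, lay under 1 scaled FPKM in Ngn3-neg, so the filter set its direction.

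Among 10 other receptors of the secretin class, including those of secretin and GLP-2, only Crhr2, a receptor of urocortins named here after its value was seen, reached 1 scaled FPKM. It stood at 2.01 in GIP-GFP and 0.940 in Ngn3-TOMATO, against 0.0324 in Ngn3-neg. Among 17 matched receptors for other peptides, 1 of 5 compared was at least 2-fold higher in GIP-GFP than in Ngn3-neg, 4 of 6 in Ngn3-TOMATO than in Ngn3-neg, and none was 2-fold lower in either. Over all genes, 21.1% and 19.2% were higher and 13.8% and 9.95% lower. Each gene of this list that was higher lay under 1 scaled FPKM in Ngn3-neg, so the filter set its direction. Galr3, another galanin receptor, stood at 20.7 in GIP-GFP and 12.6 in Ngn3-TOMATO and was listed at 0 in Ngn3-neg, the same order as Galr1, and it is the 1 gene of this list at least 2-fold higher in GIP-GFP. Of its exon bases 29.2% are shared with exons of Gcat, so its level is uncertain. No exon base of the 10 receptors themselves is shared with an exon of another annotated gene. Sort1, which binds neurotensin, and Insr, the insulin receptor, were within 2-fold between libraries.

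The G protein subunits were counted as a list of 10 genes. Gnas, the Gs subunit, stood at 1118 scaled FPKM in GIP-GFP and 782.7 in Ngn3-TOMATO, against 529.6 in Ngn3-neg. The Gi and Go subunit genes Gnai1 and Gnao1, through which Galr1 and Npy1r can act, stood at 52.0 and 277.3 in GIP-GFP and 24.1 and 128.0 in Ngn3-TOMATO, against 0.793 and 3.19 in Ngn3-neg. Gnai2 and Gnai3 were abundant in every library, with Gnai2 at 245.0, 243.3 and 143.3 and Gnai3 at 108.3, 152.5 and 194.9. Of these, Gnai3 was highest in Ngn3-neg. Gnaz, also of the Gi class, stood at 12.6, 12.1 and 0.581. The log2 ratio of Gnao1 was 6.05 in GIP-GFP over Ngn3-neg and 4.94 in Ngn3-TOMATO over Ngn3-neg. The Gq class subunits were split. Gna11 was lower in both, by log2 ratios of -1.53 and -1.38, while Gnaq was higher, by 0.98 and 0.82. Of the 9 subunit genes compared, 4 were at least 2-fold higher and 1 lower in GIP-GFP than in Ngn3-neg, where 21.1% and 13.8% of all genes were. In Ngn3-TOMATO over Ngn3-neg 3 were higher and 1 lower, where 19.2% and 9.95% of all genes were. Gnai1 and Gnaz, higher in both, lay under 1 scaled FPKM in Ngn3-neg, so the filter set their direction.

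Likeness of pattern was measured as the distance between log2 levels centred over the 3 libraries, among 11694 genes at 5 scaled FPKM or more in a library. The nearest genes to Glp1r were Nr4a1 at a distance of 0.167, Serpinf2 at 0.181 and Arc at 0.210. The gene nearest to Gipr was Tmod2, at 0.0631, and those nearest to Vipr1 were Pdzk1, Gchfr and Gstp2, at 0.0269 to 0.0407. Pdzk1 stood at 36.3 scaled FPKM in GIP-GFP and 50.4 in Ngn3-TOMATO, against 178.9 in Ngn3-neg. With 3 libraries, each holding a mixture of cells, such likeness is a description only.

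The receptor ratios were recomputed under 11 other settings of the added value, filter, scaling and matching, and none changed sign. A change of the added value or of the filter cannot change the sign of a ratio. The scaling settings changed the divisors only to between 0.897 and 1.06 of the main one, too little to reverse any receptor ratio. No receptor model was under 200 bases or had status FAIL, and all but that of Glp1r shared an end with a GENCODE transcript. Only counting the most abundant transcript could have changed a sign, for genes with more than 1 model. The unchanged signs were thus mostly fixed in advance.

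**Figure D4:**
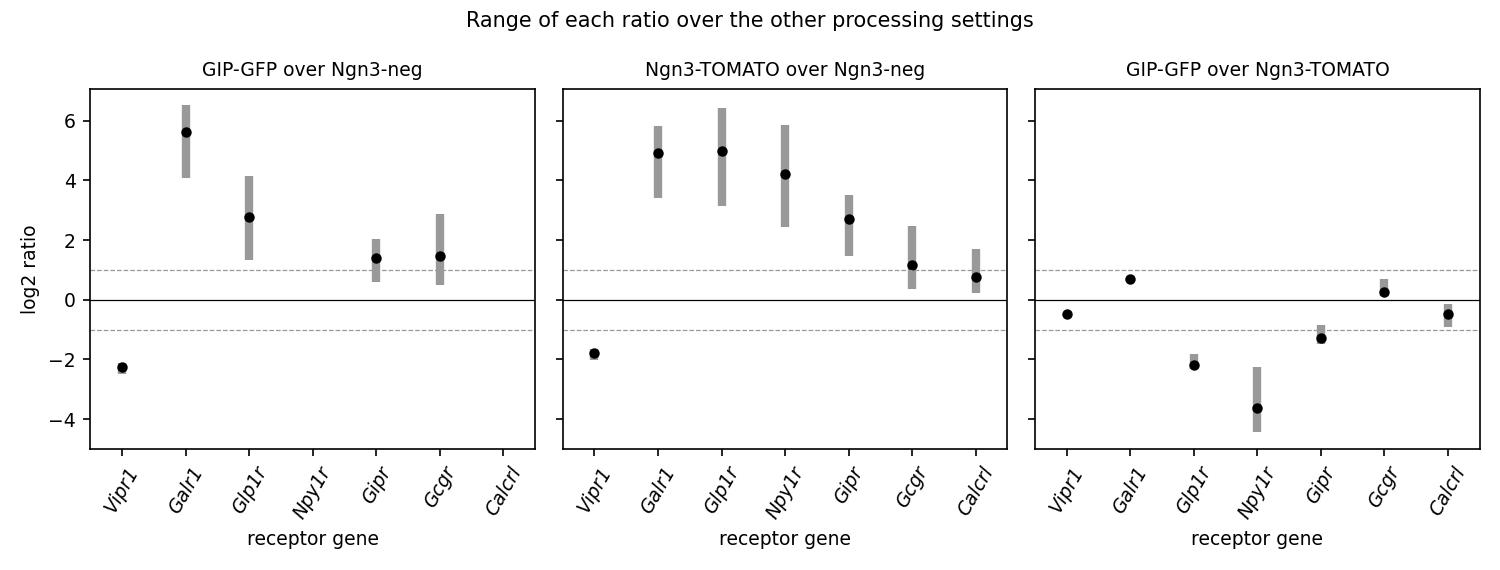
Log2 ratio of each receptor (black points) and its range over the other processing settings (grey bars), in 1 panel per comparison, with dashed lines at 2-fold. No bar crosses 0, and the bars of Gipr and Gcgr in GIP-GFP over Ngn3-neg, Gcgr and Calcrl in Ngn3-TOMATO over Ngn3-neg and Gipr in GIP-GFP over Ngn3-TOMATO cross a 2-fold line.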

How the data were processed

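Polyadenylated RNA of 3 pooled sorts was sequenced, with 1 library per group. Per the submitters' processing notes, FastQC, TopHat 1.5.0 and Cufflinks were used with build mm10. For Cufflinks they name no version. For each of 59120 UCSC transcripts the files hold, per the file headers, length, coverage signal (mean read depth per base), FPKM, FPKM limits and status. The deposited FPKM summed to about 1e+10 per library, more than fragments per kilobase and 1000000 fragments could give, so its library term is unknown and values serve only as relative levels.

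Symbols came from GENCODE M21, matched without regard to strand by ends within 5 bases, spliced length and overlap, and 50713 received a symbol. Mitochondrial transcripts and those under 200 bases were left out, and transcripts with status HIDATA (0 in GIP-GFP, 4 in Ngn3-TOMATO, 9 in Ngn3-neg) were treated as missing. The Glp1r model shares no end with an annotated transcript. Deposited FPKM were summed per gene and divided by 8086 in all libraries, which leaves ratios as deposited. Log2 ratios were computed here from the scaled deposited values after adding 1, wherever either library reached 1, and counted past 2-fold and 4-fold. The deposited limits were read as 2 standard errors. Fragments were estimated as the squared ratio of value to standard error, and 95% intervals cover counting and read assignment only. The calculation was tested on simulated data in which genes at 5 scaled FPKM or more in Ngn3-neg were raised 4-fold. Every receptor but Vipr1 lay under 1 there, so the recovery of raised genes was not tested at their levels.

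The 10 receptors and the gene lists were chosen with earlier results of these data known. All 10 were described. From other lists, genes at 5 scaled FPKM or more with the 4 farthest ratios could be named, and the other genes of those lists that are named, such as Crhr2, Gal, Vip, Npy and Ramp2, were named after their values were seen. Of the 3 genes most like Gipr in pattern, only the nearest is reported here. Alternatives changed the added value, the filter, the scaling, the transcripts summed and the matching. Python 3.11.15, pandas 2.3.3, numpy 2.4.6, scipy 1.17.1 and matplotlib 3.10.9 were used.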

Additional observations from a re-analysis of the deposited data

How the results depend on the processing

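Over 11 other settings the 19 receptor ratios gave 200 values, of which 0 changed sign and 7 crossed 2-fold. Under the settings of the added value and of the filter a change of sign was not possible. The changes of scaling were too small for one, and only counting the most abundant transcript could have given it. With a pseudocount of 5, and likewise with a filter at 5, 2 receptors in place of 4 were at least 2-fold higher in GIP-GFP than in Ngn3-neg. Over all genes, the same pseudocount left 1777 at least 2-fold higher in place of 2812 in GIP-GFP over Ngn3-neg and 1494 in place of 2558 in Ngn3-TOMATO over Ngn3-neg. In GIP-GFP over Ngn3-TOMATO they numbered 591 in place of 1090, with 665 in place of 1188 lower. A larger added value shrinks the ratios of low genes by construction. With no filter the median of the other secretin-class receptors in GIP-GFP over Ngn3-neg was -0.0025, over genes mostly at or near 0, in place of 1.55 from 1 gene. Equal totals moved the median of all genes to -0.14 in GIP-GFP over Ngn3-neg and -0.20 in Ngn3-TOMATO over Ngn3-neg, and equal totals without the 50 most abundant genes moved them to 0.19 and 0.15. Glp1r gave no value where a shared transcript end was required. Leaving out genes with a transcript of status FAIL was chosen after seeing the data. No paired analysis was possible because each group is 1 pooled library, and for the same reason no library could be left out. Depth limits Gcgr, Calcrl, Cckar and Npy2r, and every receptor but Vipr1 in Ngn3-neg.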

Other observations

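Peptidases of the epithelial surface, which cut the ligands of these receptors, were measured as well. Dpp4, which inactivates GLP-1 and GIP, stood at 220.1 scaled FPKM in GIP-GFP and 100.8 in Ngn3-TOMATO, against 206.2 in Ngn3-neg. Mme, or neprilysin, stood at 56.3, 42.1 and 265.0 in those libraries, and Anpep and Enpep, the aminopeptidases N and A, were also lower in both reporter sorts, with log2 ratios between -2.28 and -1.78 over Ngn3-neg. Ece1, which processes endothelin, had log2 ratios of 1.96 in GIP-GFP and 1.68 in Ngn3-TOMATO over Ngn3-neg. Of the 5 peptidase genes, 1 was at least 2-fold higher and 3 lower in GIP-GFP than in Ngn3-neg, where 21.1% and 13.8% of all genes were. In Ngn3-TOMATO over Ngn3-neg 1 was higher and 4 lower, where 19.2% and 9.95% of all genes were.

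Genes that switch off G protein-coupled receptors also differed. Grk3, a receptor kinase, stood at 24.6 scaled FPKM in GIP-GFP and 37.6 in Ngn3-TOMATO, against 8.35 in Ngn3-neg. Arrb2, an arrestin, stood at 16.7, 17.7 and 6.26, while Arrb1 stood at 20.7, 27.6 and 50.5 in the same libraries. The arrestin genes thus ran in opposite directions over Ngn3-neg, with log2 ratios of 1.28 for Arrb2 and -1.25 for Arrb1 in GIP-GFP. Of the 7 kinase and arrestin genes compared, 3 were at least 2-fold higher and 1 lower in GIP-GFP than in Ngn3-neg, where 21.1% and 13.8% of all genes were. In Ngn3-TOMATO over Ngn3-neg 4 of 6 were higher, where 19.2% of all genes were.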
